A study of Sus scrofa with 32 samples.

Results

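The genes described here encode the extracellular matrix of the pig testis and the enzymes that cut, crosslink or restrain it. They were chosen by symbol: collagens (COL followed by a digit), laminins (LAMA, LAMB, LAMC), fibulins (FBLN), fibrillins (FBN), matrix metalloproteinases (MMP), tissue inhibitors of metalloproteinases (TIMP), ADAMTS proteases, lysyl oxidases (LOX), nidogens (NID), and DCN, LUM, SPARC and FN1. A symbol had to pair with an identifier of the count tables and to hold at least 10 counts over all libraries. Of 25322 gene identifiers, 11804 had a symbol, 95 symbols met the name rule, and 86 of these held at least 10 counts. Just inside that threshold were MMP12 with 14 counts, COL8A1 with 15 and ADAMTSL5 with 17. Just outside it were ADAMTS19 with 8, MMP7 with 6 and COL23A1 with 5; MMP1, MMP8 and FBLN7 had 0. A further 22 symbols that fit the names, among them COL1A1, COL4A1, LAMA1, LAMA5, COL18A1, TIMP3 and LOXL2, did not pair with an identifier and were not analysed here. By role the 86 genes were 16 of the basement membrane, 22 of the interstitial matrix, 6 of elastic fibres and microfibrils, 4 crosslinking enzymes, 4 other collagens, 12 matrix metalloproteinases, 15 ADAMTS proteases, 4 ADAMTS-like genes, TIMP1, SPARC and LOXHD1, which the name rule takes in and which is not a lysyl oxidase. A filter on low counts was passed by 61 genes, 13 of them of the basement membrane and 18 interstitial, and only these were tested; the other 25 had a mean of 0.0532 to 1.32 CPM (counts for every 1e6 gene counts of a library).

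A basement membrane is a thin sheet in which laminin trimers and type IV collagen form separate networks that nidogens help to link. In the testis such a sheet surrounds each seminiferous tubule, lies between the Sertoli cells and the peritubular myoid cells that both contribute to it, and is also found around blood vessels. The interstitial matrix outside it holds fibrillar collagens, small proteoglycans such as decorin and lumican, and fibronectin. Matrix metalloproteinases and ADAMTS proteases cut these proteins or process their precursors, and TIMPs block metalloproteinases.

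Testis was taken from 32 male pigs, a Danish cross of Duroc with Landrace/Yorkshire, slaughtered at around 100 kg. Over the last 3 days the feed was either the control feed or one holding 15% chicory, and pigs were also classed as High AS or Low AS, where AS stands for androstenone and skatole, the compounds behind boar taint. With an AS class there were 10 High AS control, 7 High AS chicory, 7 Low AS control and 7 Low AS chicory pigs; 1 chicory pig had no class and entered no AS comparison. Androstenone, a steroid made by Leydig cells, was 0.67 to 7.77 mg/kg with a median of 1.8 in the 17 High AS pigs, and 0.0 to 1.07 mg/kg with a median of 0.54 in the 14 Low AS pigs. All groups were male pigs of 1 cross, the AS class was observed and not assigned, and litters were shared: there were 14 sows, and 7 had sons in both AS classes, so pigs of a litter are not independent.

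Each library was poly(A)-selected, stranded RNA-seq of whole testis, with 1855174 to 20349500 gene counts (median 4061083) and 14999 to 18269 genes detected. Per cent of gene counts that fell on the 86 genes ranged from 0.0990 to 0.243, with a median of 0.136. Testis markers were present: all 6 spermatid genes had medians of 520 to 11288 CPM, all 6 Leydig genes 3.04 to 816 CPM, and 6 of 7 Sertoli genes 2.75 to 140 CPM (AMH had no identifier), whereas CRISP1 and LCN8, of the epididymis, had a median of 0. In whole tissue, fewer cells of a type and less RNA per cell cannot be told apart. Libraries fell into 2 sets by their names in the labels. In 8 the name carries an extra number (numbered libraries; 10585625 to 20349500 counts), and in 24 it does not (plain libraries; 1855174 to 5993637 counts). Numbered libraries were 6 High AS and 2 Low AS pigs, none of them Low AS chicory. They were also the whole of index set D. The 4 libraries of sequencing lane 7 were all numbered and all High AS, and every other library was in lane 6. The library set was therefore a term in each model, and results are given within the sets as well. A few pigs stood apart: Low AS chicory pig 1 had the lowest spermatid marker level (mean log2 CPM 8.23 against a median of 11.22 over the 32 pigs), was highest for 13 of the 61 matrix genes tested and lowest for 6. High AS control pig 8, a numbered library, was highest for 16.

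Among basement membrane genes most reads came from LAMB1, the laminin β1 chain, with 285 ± 96.5 CPM (SD, n = 32), followed by LAMC1, the laminin γ1 chain, with 66.6 ± 25.1 CPM and COL4A2, a type IV collagen chain, with 46.0 ± 31.3 CPM. CPM also grows with transcript length, which was not available here, so these values rank reads and not molecules between genes. LAMB1 was 104, 309 and 439 CPM (lowest, median, highest) in High AS control pigs, 224, 323 and 481 in High AS chicory, 107, 281 and 438 in Low AS control, and 127, 218 and 324 in Low AS chicory. LAMC1 was 47.2, 64.4 and 112 CPM in High AS control, 41.4, 71.0 and 119 in High AS chicory, 34.3, 53.6 and 106 in Low AS control, and 24.1, 48.5 and 88.3 in Low AS chicory. Both laminin chains overlapped between all 4 groups, and Low AS chicory had the lowest median of each. COL4A2 was 18.1, 41.6 and 128 CPM in High AS control, 22.5, 34.1 and 103 in High AS chicory, 12.5, 28.2 and 65.9 in Low AS control, and 6.91, 27.6 and 129.6 in Low AS chicory; its spread within a group exceeded the distance between group medians. Means of the other 13 basement membrane genes ran from 0.520 CPM for COL4A3 to 30.97 CPM for the laminin α4 chain, LAMA4. Low levels were read for COL4A3, NID1 (0.761 CPM), a nidogen, and COL4A5 (1.07 CPM), and none of the 3 passed the filter on low counts.

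In the interstitial group the leading genes were COL12A1, a collagen that sits on the surface of fibrils, with 175 ± 74.2 CPM (SD, n = 32), COL3A1, which forms fibrils with type I collagen, with 170 ± 82.7 CPM, and DCN, encoding decorin, with 134 ± 44.7 CPM. COL12A1 was 91.2, 175 and 246 CPM in High AS control, 106, 147 and 405 in High AS chicory, 76.5, 176 and 271 in Low AS control, and 56.3, 145 and 297 in Low AS chicory. COL3A1 was 53.2, 171 and 388 CPM in High AS control, 90.5, 159 and 208 in High AS chicory, 84.2, 132 and 285 in Low AS control, and 48.7, 228 and 354 in Low AS chicory. Low AS chicory thus held both the lowest COL3A1 pig and the highest median, and all groups overlapped. DCN was 77.0, 121 and 243 CPM, 89.1, 141 and 215.5 CPM, 98.5, 123 and 160.2 CPM, and 63.6, 149.9 and 239 CPM in the same order of groups. FN1, encoding fibronectin, was low in most pigs, with medians of 5.93 to 6.58 CPM in the 4 groups, but reached 47.2 CPM in High AS control pig 3 and 36.0 CPM in High AS control pig 8, both numbered libraries. SPARC, a collagen-binding matricellular protein, was 1.17, 10.9 and 29.9 CPM in High AS control, 2.86, 5.37 and 16.2 in High AS chicory, 3.62, 6.57 and 18.8 in Low AS control, and 3.68, 12.1 and 16.8 in Low AS chicory.

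Elastic fibre genes were led by FBLN5, which takes part in elastic fibre assembly (11.8 CPM), FBN1, the main microfibril protein (10.995 CPM), and FBLN1 (6.81 CPM). Of the crosslinking enzymes LOXL1 had a mean of 6.30 CPM, LOX 1.57 and LOXL4 1.32. Among other collagens COL28A1 had a mean of 17.9 CPM, COL13A1, a transmembrane collagen, 2.72, and COL17A1, a transmembrane collagen of epithelial attachment sites, 1.11. LOXHD1 had 0.390 CPM.

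The protease genes were read at lower levels than the leading structural genes. MMP14, a membrane-anchored collagenase that also activates the MMP2 proenzyme, had a mean of 11.9 ± 6.15 CPM (SD, n = 32), MMP11, a stromelysin, 10.4 ± 5.30 CPM and the gelatinase MMP2 10.16 ± 3.9996 CPM. The 4 other metalloproteinases that passed the filter, MMP23B, MMP15, MMP13 and MMP19, had means of 3.76 to 7.02 CPM; the 5 that did not, MMP9 included, had means of 0.0538 to 0.442 CPM. ADAMTS2, which removes the amino-terminal propeptide of fibrillar procollagens, had 11.7 ± 4.10 CPM, ADAMTS6 11.7 ± 3.86 and ADAMTS15 10.4 ± 4.37. ADAMTSL4, an ADAMTS-like microfibril protein without protease activity, had 12.7 CPM, ADAMTSL3 1.06 and ADAMTSL2 0.955. TIMP1, the sole TIMP with an identifier, had 5.54 ± 2.29 CPM.

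**Figure D1:**
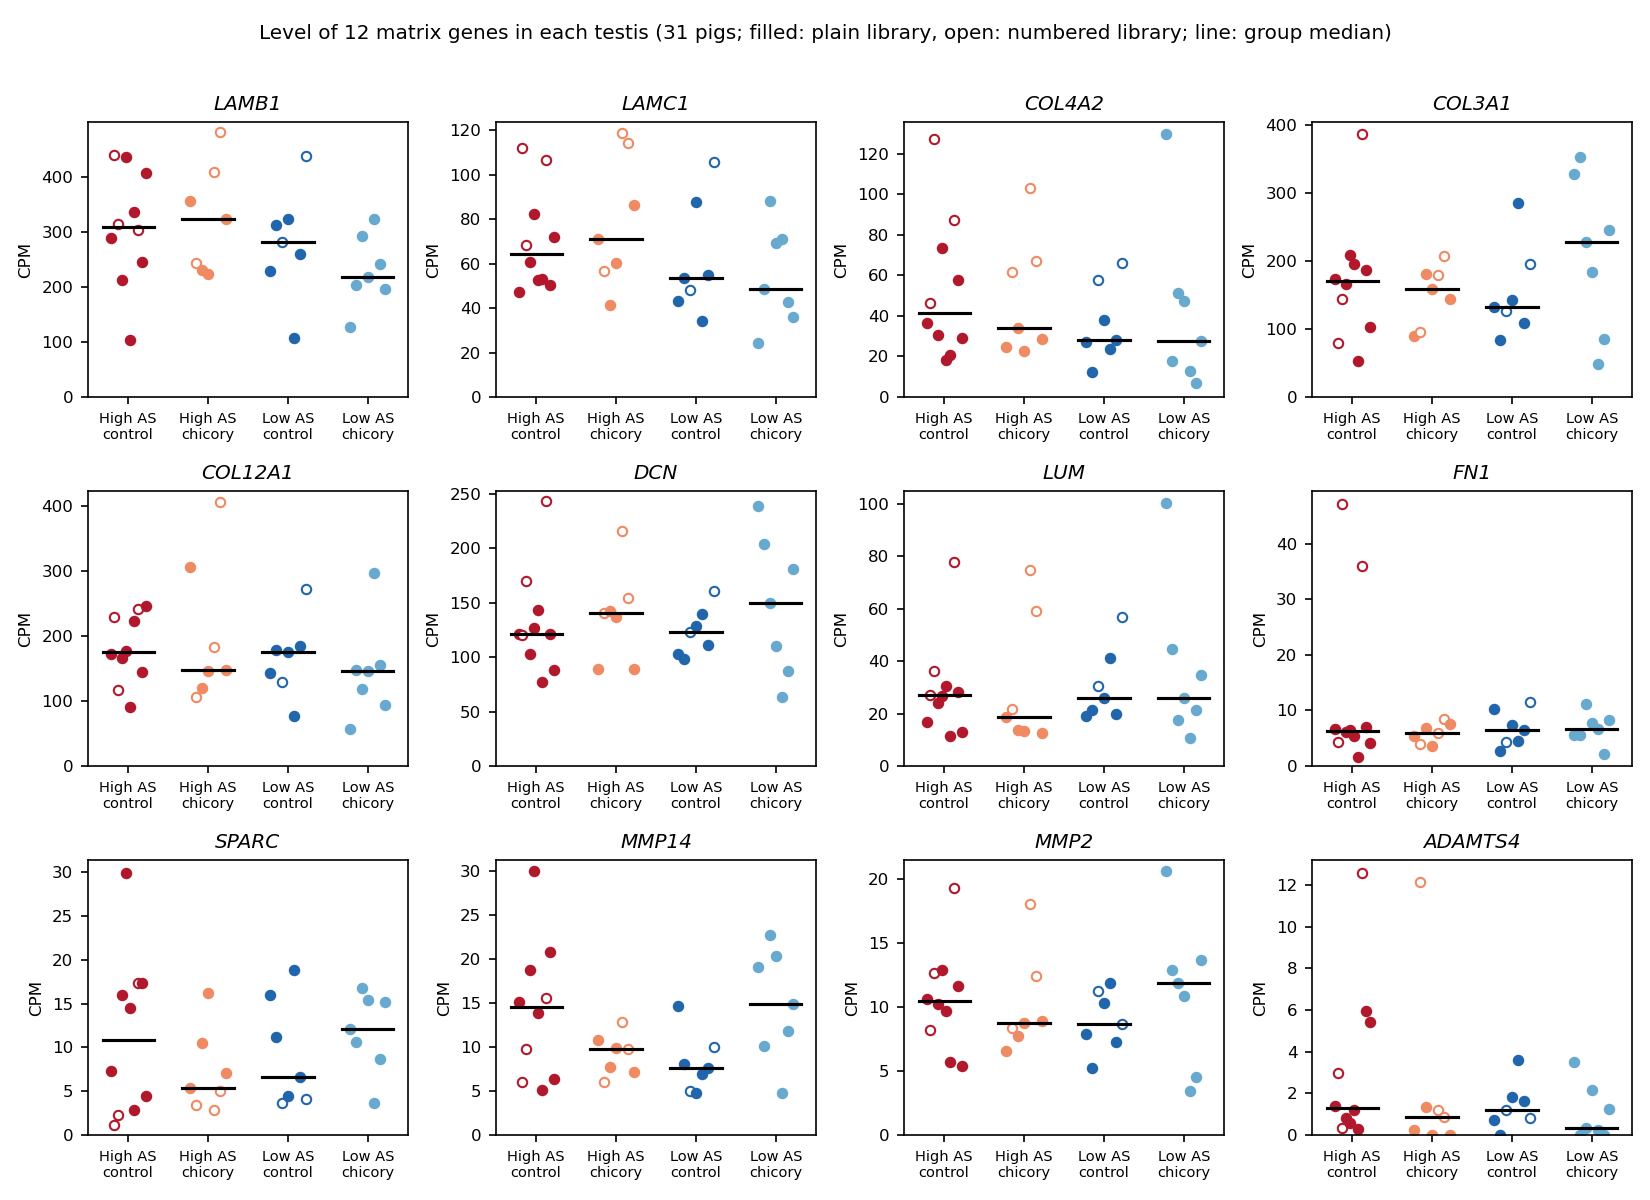
CPM (vertical axes) of 12 matrix and protease genes in the 31 pigs with an AS class, by AS class and diet. Each point is a pig (filled, plain library; open, numbered library) and each line a group median. Groups overlap for each gene shown, FN1 reaches 47.2 CPM in High AS control pig 3, and open points lie in the upper part for COL4A2 and in the lower part for SPARC, except High AS control pig 8 with 17.3 CPM of SPARC.

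Set against each other, basement membrane and interstitial genes kept a similar balance across groups. Over the 13 basement membrane genes that passed the filter the mean log2 CPM of a pig was 2.91 to 4.499, and over the 18 interstitial genes 2.96 to 4.79. High AS control pig 8 had the highest value of both and Low AS chicory pig 6 the lowest. Other pigs went apart: Low AS chicory pig 2 had 3.14 for basement membrane and 4.10 for interstitial genes, around medians of 3.39 and 3.72, and High AS control pig 10 had 3.44 and 3.22. The basement membrane mean minus the interstitial mean was -0.60, -0.31 and 0.23 (lowest, median, highest) in the 17 High AS pigs and -0.97, -0.30 and -0.03 in the 14 Low AS pigs. By diet it was -0.70, -0.29 and 0.23 in 17 control pigs and -0.97, -0.33 and -0.03 in 14 chicory pigs. The medians by AS class and by diet differed by far less than the spread of pigs within each, and no test of this score was made.

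**Figure D2:**
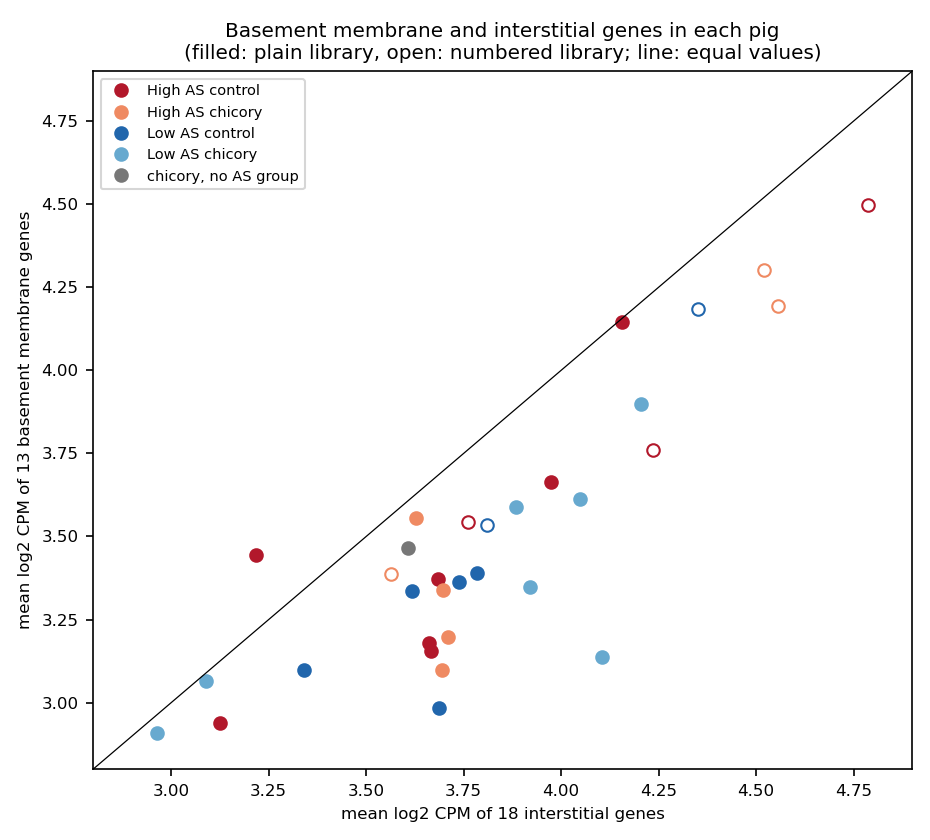
Mean log2 CPM of the 13 basement membrane genes (vertical axis) against that of the 18 interstitial genes (horizontal axis), 1 point for each of 32 pigs, with filled points for plain and open points for numbered libraries. Low AS chicory pig 6 lies lowest and High AS control pig 8 highest on both axes, Low AS chicory pig 2 and High AS control pig 10 lie off to either side, and numbered libraries lie towards the upper end.

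The first comparison asked which matrix genes differed between High AS and Low AS pigs, with diet and library set in the model. None of the 61 genes that passed the filter on low counts was called by edgeR's quasi-likelihood test at a Benjamini-Hochberg adjusted p under 0.05 over 13025 genes, and the smallest adjusted p was 0.988. That is the level of the whole table, where 0.0% of genes were called. Unadjusted p was under 0.05 for 0 of the 61, against 2.3% of all genes tested; DESeq2 gave 1 such gene and limma-voom 0. Estimates (High AS minus Low AS) were positive for 37 and negative for 24 genes with a median of 0.04 log2, beside 51.6% positive and a median of 0.01 for all genes. Basement membrane genes had 9 of 13 positive and a median of 0.11, interstitial genes 9 of 18 and 0.01, elastic fibre genes 1 of 5 and -0.14, and ADAMTS proteases 8 of 11 and 0.17. In the plain libraries alone the medians were 0.0016 for 12 basement membrane and -0.18 for 17 interstitial genes, and in the numbered libraries alone 0.26 and 0.08. Without High AS control pig 5 the median over the matrix genes tested was -0.01 and that of basement membrane genes 0.03. The interstitial median was -0.13 without Low AS control pig 3 and 0.06 without High AS control pig 7, and the elastic fibre median was -0.02 without Low AS chicory pig 1.

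By single genes, the estimates with the smallest p were small beside the spread of pigs. The highest estimate of all, 0.92 log2 in an ADAMTS protease, had a larger p. COL9A1, a chain of a fibril-associated collagen, was 0, 1.95 and 3.60 CPM in High AS and 0, 1.01 and 3.08 in Low AS pigs, a log2 difference of 0.64 (SE 0.37). FBLN2 was 1.71, 5.34 and 12.6 CPM in High AS and 1.74, 3.29 and 11.05 in Low AS pigs (0.46, SE 0.27). For both genes the ranges overlapped almost fully although the High AS median was higher. On the same log2 scale COL28A1 gave 0.38 (SE 0.23) and LAMB1 0.23 (SE 0.17). LUM, encoding lumican, a proteoglycan that binds collagen fibrils, was 11.3, 23.999 and 78.0 CPM in High AS and 10.52, 25.9 and 100.5 in Low AS pigs (-0.48, SE 0.27). COL13A1 was 0.279, 1.84 and 6.38 CPM in High AS and 0.929, 2.83 and 5.77 in Low AS (-0.45, SE 0.25), and FBLN1 and MMP23B gave -0.27 (SE 0.24) and -0.29 (SE 0.28). The 3 negative estimates of LUM, FBLN1 and MMP23B shrank to -0.28, -0.14 and -0.11 without Low AS chicory pig 1. LUM was -0.72 in plain and 0.13 in numbered libraries alone, COL28A1 0.45 and -0.37, LAMB1 0.26 and -0.03, FBLN1 -0.48 and 0.44, and FBLN2 0.45 and 0.67. COL28A1 was 0.21 without High AS control pig 1. Of the genes followed in each comparison, LAMC1 was 0.22 (SE 0.17), COL3A1 -0.17 (SE 0.26; -0.07 without Low AS control pig 5), DCN -0.11 (SE 0.16), SPARC 0.10 (SE 0.34), and MMP2 and FN1 were within 0.01 of 0 (SE 0.21 and 0.33). Several of these turned between the library sets: FN1 was -0.24 in plain and 1.88 in numbered libraries alone, COL3A1 -0.25 and 0.35, DCN -0.22 and 0.33, SPARC -0.03 and 0.89, and MMP2 -0.14 and 0.44. Among numbered libraries 4 of 6 High AS pigs and neither of 2 Low AS pigs were in lane 7. AS class and lane are thus partly mixed in every AS estimate from numbered libraries alone. TIMP1 was 0.09 (SE 0.20).

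Marker lists of cell types were read beside these values. Leydig markers had a median of 0.42 (6 genes), endothelial markers 0.30 (4 genes) and spermatid markers 0.21 (6 genes) towards High AS, whereas peritubular markers had 0.01, Sertoli markers -0.06 and the 3 spermatogonia markers tested -0.42, all 3 negative. The mean log2 CPM of the 6 Leydig genes was 4.998 to 7.64 in High AS and 4.37 to 7.66 in Low AS pigs, and that of the 4 endothelial genes 2.64 to 4.81 and 2.47 to 3.62. Among the other endothelial markers listed, VWF and CDH5 had no identifier. Their part in the matrix estimates was not tested.

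The second comparison followed measured androstenone, as log2 of mg/kg plus 0.5, and the slope gives log2 change for each doubling of that sum. None of 62 genes (LOXL4 passed the filter here) was called by edgeR after Benjamini-Hochberg adjustment, with a smallest adjusted p of 0.852, against 0.0227% of 13199 genes. Unadjusted p was under 0.05 for 4 of 62, near the background of 5.06%, with 6 by DESeq2 and 3 by limma-voom. The count moved with the setting: it was 10 of 62 without the 4 pigs at 0 mg/kg, 8 of 61 with no library set term, 7 of 62 on untransformed mg/kg, 2 of 56 in plain libraries alone, and 1 of 62 with index set or with carcass weight in the model. No share over all genes was counted at these settings, and the 5.06% belongs to the main fit. The 4 genes of the main fit were ADAMTS4, LUM, COL6A2 and COL4A4. ADAMTS4, an aggrecanase, had a slope of 0.81 (SE 0.28) and the least even values: 0.283, 1.301 and 12.6 CPM in High AS control, 0, 0.858 and 12.1 in High AS chicory, 0, 1.18 and 3.59 in Low AS control, and 0, 0.329 and 3.52 in Low AS chicory. In each AS class and diet most pigs were low, and the highest values came from single High AS pigs. LUM had a slope of -0.33 (SE 0.14), COL6A2, a type VI collagen chain, -0.23 (SE 0.11), and COL4A4, a type IV collagen chain, -0.35 (SE 0.17; -0.54 without High AS control pig 10).

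Slopes of these 4 genes had the same sign in both library sets. They were 0.67 in plain and 0.97 in numbered libraries alone for ADAMTS4, -0.30 and -0.47 for LUM, -0.23 and -0.25 for COL6A2, and -0.33 and -0.61 for COL4A4. These genes were picked by p in the fit of both sets together, so the shared sign is not separate support. The next slopes by p were positive for COL6A5 (0.30, SE 0.15; 0.44 in plain and -0.16 in numbered libraries), FBLN2 (0.26, SE 0.14) and LOXL1 (0.17, SE 0.10), and negative for FBN2 (-0.17, SE 0.10). COL3A1 had -0.11 (SE 0.13), LAMC1 0.08 (SE 0.08), DCN -0.06 (SE 0.08), SPARC -0.21 (SE 0.17), FN1 0.06 (SE 0.17), MMP2 -0.08 (SE 0.11) and TIMP1 0.16 (SE 0.09).

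Slopes were positive for 7 of 13 basement membrane genes (median 0.01), 5 of 18 interstitial genes (median -0.07), 1 of 5 elastic fibre genes (median -0.17) and 3 of 7 metalloproteinases (median -0.08). Leaving out 1 pig moved these medians: basement membrane genes had -0.03 without Low AS chicory pig 6 and 0.04 without High AS control pig 2, interstitial genes -0.11 without Low AS control pig 2 and -0.04 without High AS control pig 10, and metalloproteinases -0.13 without Low AS chicory pig 6 and -0.02 without Low AS chicory pig 7. Over the 62 genes 26 were positive and the median was -0.03, beside 47.1% and -0.01 for all genes. In plain libraries alone the medians of basement membrane and interstitial genes were 0.03 and -0.04, and in numbered libraries alone -0.19 and -0.26. Androstenone was 0 mg/kg in 4 pigs. Without these, 14 of 62 slopes were positive, with a median of -0.13. The 47.1% and -0.01 of all genes are from the main fit and do not cover that setting. Leydig markers had a median slope of 0.22 and Sertoli markers -0.14, and their part was not tested.

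The third comparison was chicory against control diet. None of the 61 genes was called by edgeR (smallest Benjamini-Hochberg adjusted p 1.0), against 0.00768% of all genes, and 1 had an unadjusted p under 0.05, against a background of 0.875%; DESeq2 gave 1 and limma-voom 0. That gene was LOXL1, an elastin-crosslinking oxidase, at 1.91, 5.41 and 10.8 CPM in 17 control and 3.16, 6.55 and 15.9 in 14 chicory pigs. Its log2 difference (chicory minus control) was 0.42 (SE 0.20), and it was 0.39 in plain and 0.63 in numbered libraries alone. The diet groups overlapped over most of their range. COL9A1 had 0.51 (SE 0.35; -0.25 in numbered libraries), COL5A1, a chain of a minor fibrillar collagen, 0.37 (SE 0.25; 0.19 without Low AS chicory pig 1) and COL13A1 0.33 (SE 0.23; -0.13 in numbered libraries). On the other side the smallest p were those of COL15A1 with -0.54 (SE 0.43), MMP19 with -0.40 (SE 0.26), ADAMTS9 with -0.29 (SE 0.17) and MMP13 with -0.27 (SE 0.24; 0.04 in numbered libraries). The lowest diet estimate, -0.58 in an ADAMTS protease, had a larger p. COL15A1, a basement membrane zone collagen, was 0.531, 2.87 and 12.2 CPM in control and 0, 1.80 and 5.76 in chicory pigs, and its difference was -0.13 without High AS control pig 8. MMP19 was 1.04, 4.43 and 11.3 CPM in control and 1.33, 2.82 and 8.54 in chicory pigs, and -0.19 log2 without Low AS control pig 5.

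The genes followed in each comparison also moved with single pigs under diet. FN1 gave -0.36 (SE 0.35), but 0.07 in plain and -2.25 in numbered libraries alone and -0.20 without High AS chicory pig 2. SPARC gave -0.29 (SE 0.33), and -0.05 without High AS control pig 8. COL3A1 gave 0.12 (SE 0.25), with 0.02 without Low AS chicory pig 2 and 0.24 without High AS control pig 8. MMP2 gave 0.10 (SE 0.20), with 0.01 without Low AS chicory pig 1 and 0.17 without High AS control pig 8. DCN gave 0.18 (SE 0.15), with 0.11 without Low AS chicory pig 1. LAMC1 gave 0.06 (SE 0.16), with -0.0058 without Low AS chicory pig 3 and 0.12 without Low AS control pig 4. TIMP1 gave 0.26 (SE 0.20).

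Across groups of genes 40 of 61 diet estimates were positive with a median of 0.06, beside 51.9% and 0.01 for all genes. Basement membrane genes had 9 of 13 positive (median 0.07) and interstitial genes 14 of 18 (median 0.09). The first median was 0.01 without Low AS chicory pig 3 and 0.11 without High AS chicory pig 2, and the second 0.05 without Low AS chicory pig 2 and 0.17 without High AS chicory pig 2. In plain libraries alone these medians were 0.04 and 0.10, and in numbered libraries alone -0.16 and -0.05. Without Low AS chicory pig 1 and High AS control pig 3 together, 34 of 61 were positive with a median of 0.02. The 51.9% and 0.01 of all genes belong to the main fit and do not cover these other settings. Leydig markers had a median of -0.25, endothelial markers -0.24 and peritubular markers 0.15 in the same direction of contrast, and their part was not tested.

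The fourth comparison asked whether the diet difference depended on the AS class. None of 61 genes was called by edgeR (smallest Benjamini-Hochberg adjusted p 0.951), as for 0.0% of all genes, and 3 had an unadjusted p under 0.05, against 3.63% of all genes; DESeq2 gave 3 and limma-voom 2. These were MMP14, COL22A1 and FN1. MMP14 was 5.09, 14.5 and 29.9 CPM in High AS control, 6.02, 9.73 and 12.8 in High AS chicory, 4.80, 7.55 and 14.6 in Low AS control, and 4.73, 14.9 and 22.7 in Low AS chicory. Its median was lower on chicory than on control diet in High AS pigs and higher in Low AS pigs, with overlapping ranges, and the interaction term was -1.32 log2 (SE 0.49). COL22A1, a collagen of tissue junctions, had 0.75 (SE 0.32), with medians of 51.7 CPM in High AS control, 65.6 in High AS chicory, 65.3 in Low AS control and 45.8 in Low AS chicory. FN1 had -1.32 (SE 0.63), on values carried by High AS control pigs 3 and 8.

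Of the 61 interaction terms 44 were negative and the median was -0.29, beside 47.7% positive and a median of -0.02 for all genes. Basement membrane genes had 9 of 13 negative (median -0.28), interstitial genes 13 of 18 (median -0.36), metalloproteinases 6 of 7 (median -0.60) and elastic fibre genes 5 of 5 (median -0.66). The overall median was -0.08 without High AS control pig 8, with -0.01 for basement membrane and -0.15 for interstitial genes. Without Low AS chicory pig 1 the metalloproteinase median was -0.39 and the elastic fibre median -0.28. With no library set term the median over the matrix genes tested was -0.10, and that of 12 basement membrane genes turned to 0.10. In plain libraries alone the median over the matrix genes tested was -0.34, with 38 of 56 negative. The 47.7% and -0.02 of all genes belong to the main fit and do not cover these other settings. In numbered libraries alone the interaction could not be fitted, since they hold no Low AS chicory pig. Endothelial markers had a median interaction of -0.72, Sertoli markers -0.60 and spermatid markers 0.40. The 3 spermatogonia markers tested had -1.05, all 3 negative, and the 1 macrophage marker tested had -1.02; their part was not tested.

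Split by diet and by AS class, the single effects gave 1 gene of 61 at an unadjusted p under 0.05 for AS on control diet (MMP14, 0.78, SE 0.32), against 1.27% of all genes. AS on chicory gave 3, against 6.22%: LUM (-0.98, SE 0.40), COL22A1 (0.56, SE 0.24) and MMP11 (-0.72, SE 0.35). Diet in High AS pigs gave FN1 alone (-0.97, SE 0.44), against 1.44%, and diet in Low AS pigs gave MMP14 (0.77, SE 0.36) and FBLN5 (0.61, SE 0.28), against 2.65%. No gene of these 4 sets was called after Benjamini-Hochberg adjustment by edgeR, and these shares are near the background.

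**Figure D3:**
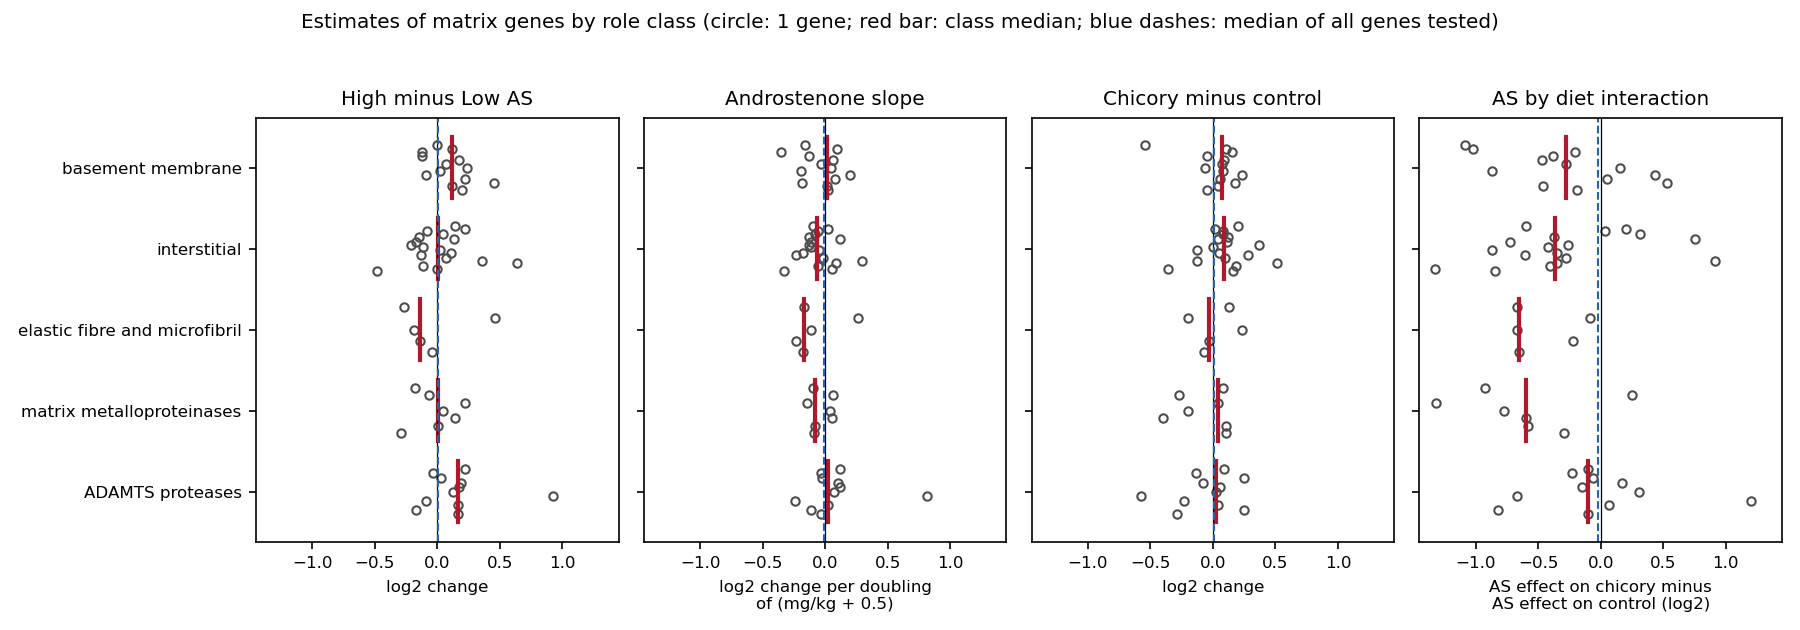
Log2 estimates (horizontal axes) of the AS, androstenone, diet and interaction terms for the tested genes of 5 roles. Each circle is a gene, each red bar the median of a role and each blue dashed line the median of all genes tested; most circles lie around the dashed line, and the role medians of the interaction terms lie to its left.

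Other genes of the pathway were read from 4 lists made by role. In the AS comparison 1 of 11 collagen processing genes (positive), 1 of 15 other matrix proteins (negative), 0 of 12 matrix receptors and 0 of 8 other genes of protease control had an unadjusted p under 0.05, beside 2.3% of all genes. In the androstenone comparison the counts were 0 of 11, 1 of 16 (negative), 2 of 12 (both positive) and 0 of 8, beside 5.06% of all genes, and with diet they were 0 in each list, beside 0.875%. For the interaction they were 1 of 11, 1 of 15, 0 of 12 and 3 of 8, all negative, beside 3.63% of all genes. No gene of the 4 lists was called after Benjamini-Hochberg adjustment by edgeR in these comparisons.

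In contrast to diet and androstenone, the library set separated many matrix genes. The numbered libraries were higher for 17 and lower for 1 of the 61 genes at an adjusted p under 0.05 (edgeR, Benjamini-Hochberg, with AS and diet in the model). This made 18 called, beside 29.1% of all genes called in either direction and 13.4% called as higher, so the total share was at the background and most calls were on the higher side. COL13A1 was 0.279, 1.81 and 5.53 CPM in 24 plain and 3.12, 4.76 and 6.38 in 8 numbered libraries (log2 difference 1.42, SE 0.25, edgeR adjusted p = 0.000108). ADAMTS15 was 3.41, 7.69 and 14.5 CPM in plain and 13.9, 16.1 and 19.9 in numbered libraries (0.90, SE 0.16, edgeR adjusted p = 0.000114). LAMA3, a laminin α chain of epithelia, was 0.718, 3.28 and 6.16 CPM in plain and 4.49, 8.45 and 9.10 in numbered libraries (1.13, SE 0.25). Overlap between the sets was slight for ADAMTS15 and LAMA3 and larger for COL13A1. The filter on low counts used both sets together, so a gene could pass it through the numbered libraries. It let through 53 matrix genes in plain libraries alone, COL13A1 not among them, and 74 in numbered libraries alone. The part of the filter in the calls on the higher side was not tested.

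SPARC was the gene called as lower, at 2.83, 10.9 and 29.9 CPM in plain and 1.17, 3.53 and 17.3 in numbered libraries (-1.36, SE 0.40, edgeR adjusted p = 0.00948). Other basement membrane genes called as higher were COL4A6 (0.93, SE 0.19), COL4A2 (1.07, SE 0.31), LAMC1 (0.53, SE 0.18) and LAMC3 (0.54, SE 0.20). Interstitial genes called as higher were LUM (1.05, SE 0.29), FN1 (1.13, SE 0.38), COL6A5, COL5A2 and COL14A1. FN1 was high in High AS control pigs 3 and 8 (47.2 and 36.0 CPM). The other numbered libraries had 3.92 to 11.5 CPM of FN1, beside 1.70 to 11.2 in plain ones. ADAMTS20, ADAMTS2, ADAMTSL4, LOXL1 and TIMP1 were also called as higher. Medians were 0.53 for basement membrane and 0.47 for interstitial genes, -0.13 for metalloproteinases and -0.35 for elastic fibre genes, beside -0.02 for all genes. After SPARC, the lowest negative differences by p were those of MMP14 (-0.57), FBLN2 (-0.55) and MMP19 (-0.54), which were not called.

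Cell markers differed with the library set too. All 6 peritubular markers were higher in numbered libraries (median 0.90, 4 called), and all 6 Leydig markers were lower (median -1.24, 5 called). Mean log2 CPM of the peritubular markers was 2.75 to 3.97 in plain and 3.90 to 4.62 in numbered libraries, and that of the Leydig markers 5.15 to 7.66 and 4.37 to 6.21. Of the 6 Sertoli markers 3 were called as lower. No pig was in both sets, so differences of pigs, cell makeup and library handling cannot be told apart. Sequencing depth also differed without overlap between the sets.

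**Figure D4:**
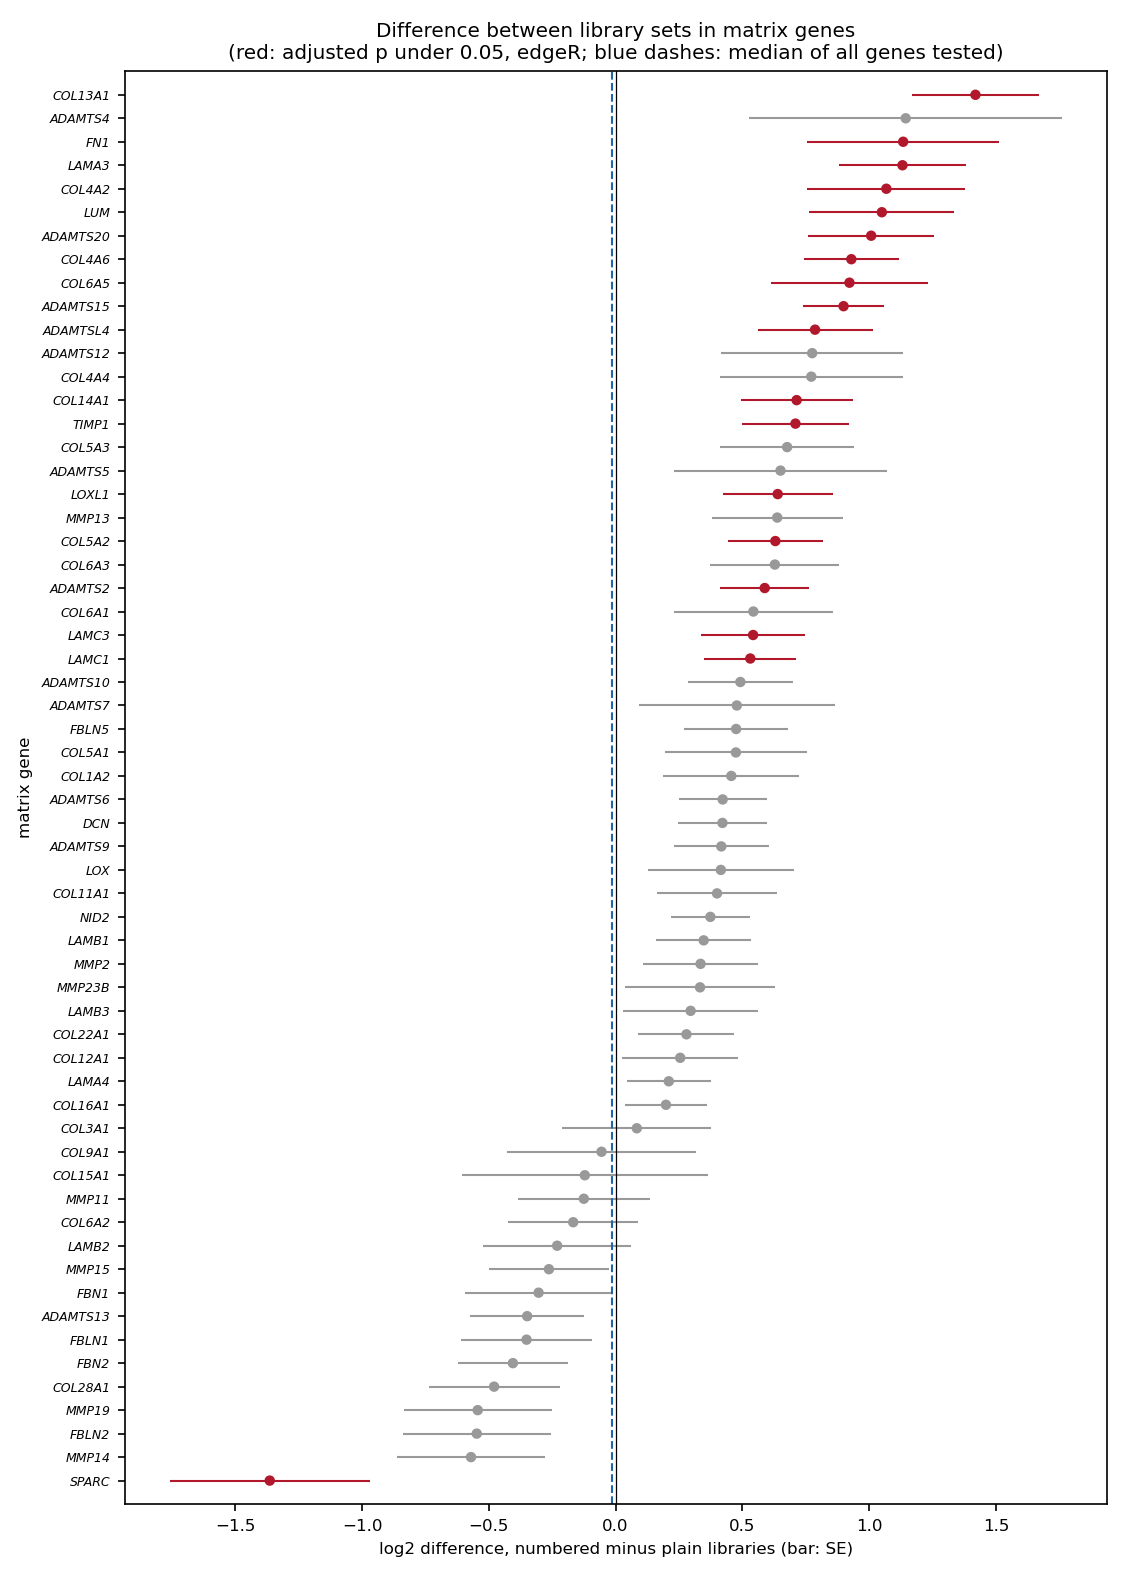
Log2 difference of numbered minus plain libraries (horizontal axis) with its SE (bars) for matrix genes tested, each on a line of its own; red marks an adjusted p under 0.05. The red genes lie to the right of 0 from 0.53 to 1.42, except SPARC at -1.36.

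Pairs of matrix genes were followed across the 24 plain libraries, on log2 CPM, with permutation tests of 39 pairs whose p-values for r and rho were adjusted together (Benjamini-Hochberg). The smallest p these permutations can give is 1e-05. Pigs were shuffled without regard to litter, so the p-values treat littermates as independent, and no run of the pairs had sow as a block. COL1A2, the type I collagen α2 chain, and COL3A1 went together with r = 0.95 (permutation p = 1e-05) and rho = 0.95 (permutation p = 1e-05), both 0.00013 after adjustment. Without the 2 pigs farthest from the median r was 0.93, and in the 8 numbered libraries it was 0.96. DCN followed COL1A2 with r = 0.88 and rho = 0.92, and MMP2 followed COL1A2 with r = 0.86 and rho = 0.88 (permutation p = 1e-05 and adjusted p = 0.00013 for each of the 4 values). For these pairs r was 0.86 and 0.83 without the 2 farthest pigs and 0.89 and 0.81 in the numbered libraries. DCN and LUM had r = 0.77 (permutation p = 2e-05, adjusted p = 0.000195) and rho = 0.65 (permutation p = 0.00088, adjusted p = 0.00327), 0.63 without the 2 farthest pigs and 0.83 in numbered libraries. Type I and III collagen, decorin and MMP2 thus went together from pig to pig.

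The laminins and COL12A1 formed another set of pairs. LAMB1 and LAMC1 had r = 0.67 (permutation p = 0.00038, adjusted p = 0.00165) and rho = 0.64 (permutation p = 0.00096, adjusted p = 0.0034), 0.72 without the 2 farthest pigs and 0.82 in numbered libraries. LAMB1 and COL12A1 had r = 0.79 (permutation p = 2e-05, adjusted p = 0.000195) and rho = 0.72 (permutation p = 0.00013, adjusted p = 0.000676), 0.73 without the 2 farthest pigs and 0.82 in numbered libraries. This pair joins a basement membrane chain to a gene counted here as interstitial. COL12A1 and COL3A1, both interstitial, went in opposite directions in plain libraries, with r = -0.77 (permutation p = 4e-05, adjusted p = 0.00026) and rho = -0.76 (permutation p = 4e-05, adjusted p = 0.00026), and -0.74 without the 2 farthest pigs. In the numbered libraries r was 0.49, so this relation did not hold there. LAMB1 and COL3A1 had r = -0.57 (permutation p = 0.00414, adjusted p = 0.0108) and rho = -0.60 (permutation p = 0.00247, adjusted p = 0.00714), -0.55 without the 2 farthest pigs and 0.12 in numbered libraries. The pairs of COL12A1 with LAMB1 and COL3A1, and of LAMB1 with COL3A1, were chosen after levels had been seen.

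The pairs within the type IV collagens that could be run, and COL4A2 with LAMC1, were weak in the plain libraries. COL4A3 and COL4A4 had r = 0.02 (permutation p = 0.907, adjusted p = 0.931) and rho = 0.05 (permutation p = 0.807, adjusted p = 0.839). COL4A5 and COL4A6 had r = 0.18 (permutation p = 0.41, adjusted p = 0.478) and rho = 0.27 (permutation p = 0.201, adjusted p = 0.248). COL4A2 and LAMC1 had r = -0.0014 (permutation p = 0.995, adjusted p = 0.995) and rho = 0.21 (permutation p = 0.322, adjusted p = 0.38), and r = 0.38 without Low AS chicory pig 1. Without the 2 farthest pigs these 3 values of r were 0.06, 0.19 and 0.31. In the 8 numbered libraries r was 0.89 for COL4A3 and COL4A4 (rho = 0.90, permutation test, adjusted p = 0.0697 for both), 0.69 for COL4A5 and COL4A6 (rho = 0.50; r = -0.09 without the 2 farthest pigs) and 0.07 for COL4A2 and LAMC1. COL4A3 had a mean of 0.520 CPM and COL4A5 1.07 CPM, where few reads set the values, and neither passed the filter on low counts. COL4A1 had no identifier, so its pair with COL4A2 could not be run.

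Markers of cell types went with several of these genes in the plain libraries. COL4A2 went with peritubular markers at r = 0.72 (permutation p = 5e-05, adjusted p = 0.0003) and rho = 0.71 (permutation p = 0.00023, adjusted p = 0.00106), 0.61 without the 2 farthest pigs and 0.66 in numbered libraries. With endothelial markers COL4A2 had r = 0.72 (permutation p = 8e-05, adjusted p = 0.000446) and rho = 0.65 (permutation p = 0.00076, adjusted p = 0.00296), 0.75 without the 2 farthest pigs and 0.32 in numbered libraries. COL3A1 went with Leydig markers at r = 0.70 (permutation p = 0.00015, adjusted p = 0.000731) and rho = 0.74 (permutation p = 4e-05, adjusted p = 0.00026), 0.73 without the 2 farthest pigs, but 0.07 in numbered libraries. It also went with endothelial (r = 0.61), peritubular (0.56) and Sertoli markers (0.52), with 0.83, 0.70 and 0.55 in numbered libraries. With spermatid markers r was -0.46 for COL3A1, 0.59 for COL12A1 and 0.55 for LAMB1. Without Low AS chicory pig 1 these values were -0.34, 0.33 and 0.44, and in numbered libraries -0.88, -0.64 and -0.23. COL12A1 went against Leydig markers at r = -0.56 (permutation p = 0.00435, adjusted p = 0.0108) and rho = -0.59 (permutation p = 0.00297, adjusted p = 0.00827), -0.56 without the 2 farthest pigs and -0.38 in numbered libraries. These values cannot say which cells made the RNA.

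**Figure D5:**
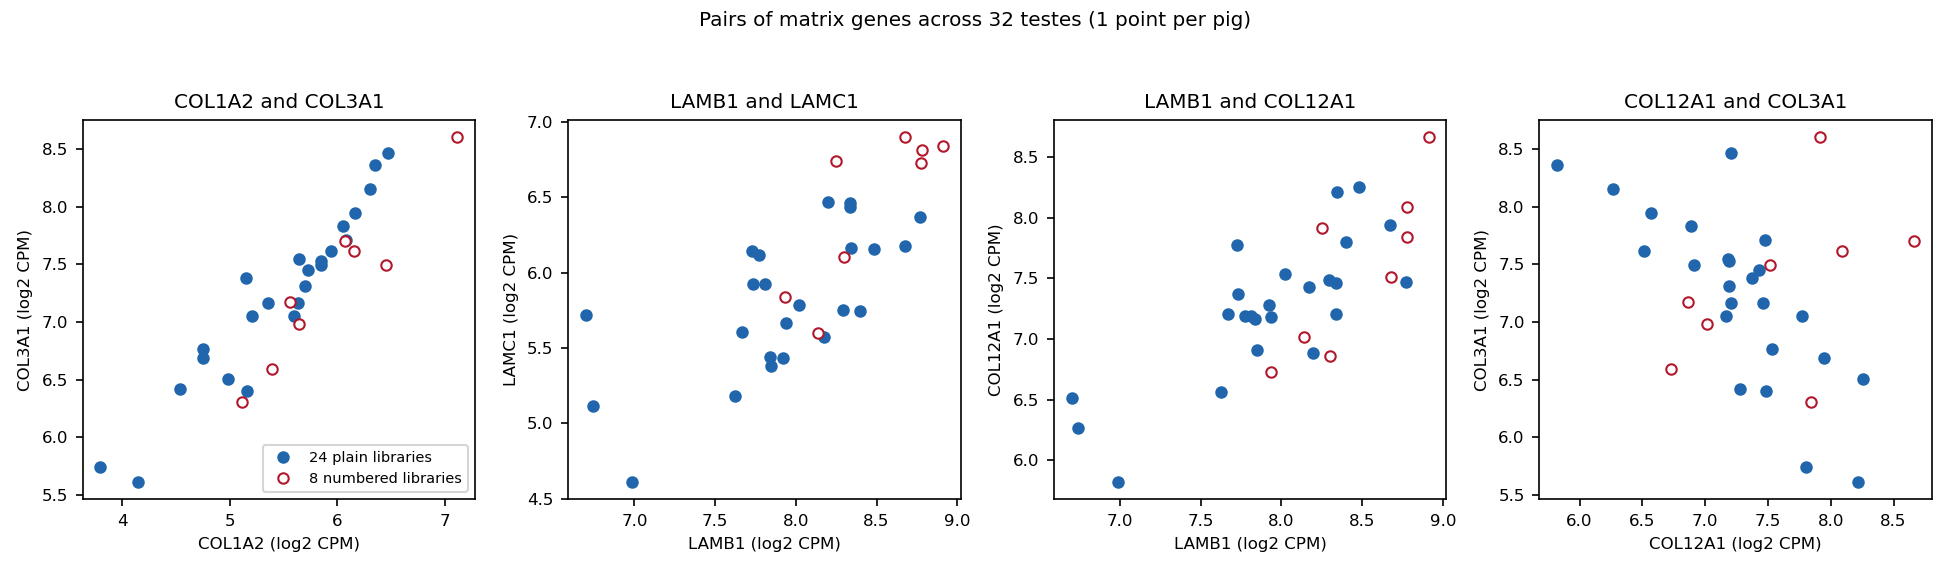
Log2 CPM of 4 gene pairs (both axes), 1 point for each of 32 pigs, filled for plain and open for numbered libraries. COL1A2 and COL3A1 lie along a rising line (r = 0.95 in plain libraries), and COL12A1 and COL3A1 fall in the plain libraries (r = -0.77) but not in the numbered ones (r = 0.49).

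Matrix genes also differed in how far they varied from pig to pig. Over the 24 plain libraries the SD of log2 CPM had a median of 0.64 for the 61 genes and 0.48 for all 13025 genes tested, whose median level was also higher (4.24 against 2.68 log2 CPM). Large SDs were those of ADAMTS4 (1.36), ADAMTS20 (1.09), ADAMTS7 (1.07) and ADAMTS5 (1.03). Their mean log2 CPM in plain libraries was 0.23, 2.68, 0.86 and 0.46, so for most of them few reads set the value. The smallest SDs were those of LAMA4 (0.27), COL16A1 (0.33), NID2 (0.35), FBN1 (0.36) and COL4A6 (0.44). These had means of 4.87, 4.025, 4.30, 3.52 and 1.77. Count noise and differences of pigs were not separated. Basement membrane genes (median 0.65) and interstitial genes (0.62) had similar values.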

How the data were processed

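Testis RNA-seq of 32 pigs was analysed from the whole-number gene counts that the authors deposited, 1 table per pig. Per the submitters' processing notes the reads were counted with HTSeq 0.6.0, and the notes also name STAR, Trimmomatic 0.33, SAMtools 1.3.1 and cutadapt 1.8.1. Strand setting, annotation and genome build are not given in the sources used here. Reads of overlapping or antisense genes may therefore not be told apart. The closing HTSeq rows, such as reads in no gene (20.6 to 39.6% of the gene counts and these rows together), were left out. Identifiers were named from an Ensembl name table.

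Genes were filtered with filterByExpr, scaled by TMM and tested with edgeR 4.0.16 (R 4.3.3, quasi-likelihood) in models of AS or androstenone, diet and library set, and of the 4 groups with library set for the interaction. P-values were adjusted by Benjamini-Hochberg over all genes tested, with a threshold of 0.05. SE was the log2 change divided by the root of F. CPM used TMM-scaled library sizes, and log2 CPM a prior count of 2. Correlations used 1e+05 permutations in scipy 1.17.1. The tests were checked on simulated counts. Pigs were the replicates. Replicate numbers follow accession order and pair nothing.

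Genes were named by rule: members past the threshold, the 4 smallest p in each direction, a few followed genes (COL3A1, LAMC1, FN1, SPARC, DCN and MMP2; COL1A1 and COL4A1 had no identifier), the 3 highest levels in each role, the 5 largest and 5 smallest SDs, the 4 smallest p in each direction for the library set, and the 2 smallest p of the interaction. A gene that this rule names is not reported here. Other names were given for counts of 5 or fewer or chosen after values were seen. The members, roles and lists were chosen with earlier results of these data known. Of 18 gene pairs planned, 13 could not be run because a gene had no identifier; 9 pairs with COL1A2 or COL4A2 in place, 5 pairs of high genes and 20 pairs with marker lists were chosen after seeing the data. Alternatives were DESeq2 1.42.0, limma-voom 3.58.1, other scaling, filters and covariates, each library set alone, and leaving out each pig.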

Additional observations from a re-analysis of the deposited data

Results flagged for a closer look

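In 5 of 108 groups of 7 to 10 pigs tested (27 genes in 4 groups), the lowest or highest pig lay farther from the rest than the 95% limit of Dixon's test; chance alone gives about 1 in 20. COL15A1 was 0.0 CPM in Low AS chicory pig 5, while the other 6 pigs of that group had 1.55 to 5.76. COL9A1 was 0.478 CPM in High AS chicory pig 2 against 1.82 to 3.60 in the others. LAMB1 was 103.65 CPM in High AS control pig 6 against 212 to 439. MMP13 was 0.445 CPM in High AS chicory pig 7 against 3.60 to 8.87. MMP19 was 11.3 CPM in Low AS control pig 5 against 1.04 to 2.95, and this is the pig without which the diet difference of MMP19 moved from -0.40 to -0.19 log2.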

How the results depend on the processing

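In the AS, androstenone, diet and interaction tests 0 matrix genes were called under each alternative run and without any 1 pig. At an unadjusted p under 0.05 the counts without 1 pig were 0 to 2, 2 to 6, 0 to 1 and 2 to 8. The share over all genes was not counted for these runs. The library set difference gave 20 of 61 genes with relative log expression size factors, 23 of 86 with no filter and 18 of 64 with a stricter filter. It gave 23 of 61 by DESeq2, 22 of 61 by limma-voom, and 14 to 25 without 1 pig. Over all genes the alternative runs called 3816, 3886, 3832, 4297 and 4372 in this order, beside 3794 in the main fit. Replicate numbers only follow accession order and give no pairs, so litters were compared within by using sow as a block. With that block unadjusted p (edgeR) was under 0.05 for 2 of 70 genes with AS and 3 of 70 with androstenone. For diet it was 4 of 70 and for the interaction 5 of 70, again with no share over all genes counted.

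AS estimates changed sign as follows. MMP2 was -0.0035 with no filter, -0.00092 by DESeq2, -0.14 in plain libraries and -0.019 with sow as a block. FN1 was 0.11 by limma-voom, 0.41 with no library set term, 0.083 with sow, 0.29 with carcass weight (29 pigs) and 1.88 in numbered libraries. SPARC was -0.073 by limma-voom, -0.19 with no library set term and -0.025 in plain libraries. With no library set term COL13A1 was 0.035 and DCN 0.0049. With sow DCN was 0.015 and COL3A1 0.0061. In numbered libraries COL13A1 was 0.23, DCN 0.33, COL3A1 0.35, COL28A1 -0.37, LAMB1 -0.028, LUM 0.13 and FBLN1 0.44. Without 1 pig FN1 ran from -0.22 to 0.099, MMP2 from -0.075 to 0.091 and SPARC from -0.056 to 0.19.

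The androstenone slope of FN1 was -0.035 with index set, -0.044 in plain libraries, -0.11 without Low AS chicory pig 1 and High AS control pig 3, and -0.10 to 0.13 without 1 pig. With sow COL6A5 was -0.039, COL3A1 0.084, LAMC1 -0.092, SPARC 0.11 and DCN 0.063. LAMC1 was -0.017 without pigs at 0 mg/kg and -0.034 in numbered libraries, where COL6A5 was -0.16. The diet difference of FN1 was 0.070 in plain libraries, and with sow LAMC1 was -0.14 and SPARC 0.30. In numbered libraries COL9A1 was -0.25, COL13A1 -0.13, MMP13 0.039, COL3A1 -0.35, DCN -0.062 and MMP2 -0.052. LAMC1 ran from -0.0058 to 0.12 without 1 pig.

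Of 39 pairs, r passed an adjusted p of 0.05 for 27 in plain libraries, for 27 with a prior count of 0.5, for 28 within index sets, for 17 without Low AS chicory pig 1, and for 1 in the 8 numbered libraries. No pairs of other genes were run as a background, and most of the pairs were chosen after seeing the data. These counts therefore cannot be read as a trait of matrix genes. In the numbered libraries r was 0.074 for COL4A2 with LAMC1, -0.12 for COL4A2 with COL4A5, -0.54 for COL12A1 with COL22A1, 0.12 for LAMB1 with COL3A1 and 0.49 for COL12A1 with COL3A1. There COL12A1 had -0.64 with spermatid, 0.20 with peritubular, 0.21 with Sertoli and 0.50 with endothelial markers, and LAMB1 -0.23, 0.15, 0.37 and 0.12. Without Low AS chicory pig 1 NID1 with LAMC1 had 0.16, COL4A2 with LAMC1 0.38 and LAMB1 with peritubular markers 0.16. With a prior count of 0.5 COL4A3 with COL4A4 had -0.021 and LAMB1 with peritubular markers 0.0011. The cause of these changes was not tested. The plain libraries, with at most 5993637 counts each, limit what can be seen for genes near 1 CPM.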
